A study of Mus musculus with 2 samples.

Results

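Dense clusters of distal accessible regions were taken from DNase-seq peaks of mouse heart. The clusters held 5437 of 158902 merged accessible regions. Peaks of both replicates were merged where they overlapped, and 104623 regions had a peak in each replicate. Of these, 76373 lay over 1 kb from every start of a protein-coding gene and are called distal here. Neighbouring distal regions were joined where the gap between them did not exceed a fixed length, and the members are the regions of joined groups that held 10 or more. The widest gap inside a cluster was a little over 12 kb. This gave 412 clusters with 7.12% of the distal regions. Members were thus chosen by the presence and spacing of the peaks, and clusters were ranked by the summed peak signal, so their density and rank are descriptions and carry no test.

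The study has 1 group of 2 biological replicates, hearts from B6CASTF1/J males at an age of 14 days. This strain is the F1 hybrid of C57BL/6J with CAST/EiJ. For replicate 1 a label speaks of 3 males, for replicate 2 none says how many animals were used, and both carry the same donor identifier. The SD over the replicates may therefore hold technical spread only. No agent, knockout or contrast is named, so no test between conditions was possible. Values are the authors' peak signal, and without read totals the depth of a peak is unknown. Tissue identity was checked at promoters, where 34 of 37 contraction and calcium-handling genes had a peak in each replicate, against 68.8% of all protein-coding genes. Among lists of other tissues and blood cells these were 2 of 18 hepatocyte, 4 of 12 lung epithelial, 4 of 11 erythroid, 9 of 18 leukocyte, 9 of 18 skeletal muscle, 7 of 12 fat and 13 of 20 neuron and glia genes, so an open promoter alone does not tell these tissues apart gene by gene.

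DNase I cleaves DNA where nucleosomes are displaced, so its cut sites mark promoters, enhancers, insulators and other regulatory DNA. Enhancers can lie in groups along a chromosome, and large groups are known near genes that define a cell type and near genes that respond quickly to signals. Accessibility alone does not tell enhancers from other elements, nor does nearness show which gene an element acts on. In whole tissue the signal of a region sums over all cell types, so the share of cells that are open there and the degree of opening in each cell cannot be told apart.

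Sequences are shown for the strongest region of each of the clusters ranked 2 to 5 and for 3 of the 5 member regions with the highest signal, since they lead the clusters described below. They are read from the forward strand of GRCm38, the assembly also named mm10. Capitals mark bases inside footprints of both replicates, a footprint being a short stretch protected from cleavage within accessible DNA. Intergenic means outside protein-coding genes, and the cluster 5 region lies within the non-coding genes 9330198N18Rik and Gm14486. Regions over 240 bases are shown as the 240 bases about their middle.
Intergenic between Lrrc74a and Irf2bpl, cluster 2, chr12:86801281-86801480: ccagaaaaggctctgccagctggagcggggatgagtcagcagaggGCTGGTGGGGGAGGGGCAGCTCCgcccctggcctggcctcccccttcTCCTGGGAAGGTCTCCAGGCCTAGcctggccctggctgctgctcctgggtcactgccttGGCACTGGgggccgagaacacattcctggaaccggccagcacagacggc
Intergenic between Wnt7b and Ppara, cluster 3, chr15:85634521-85634760: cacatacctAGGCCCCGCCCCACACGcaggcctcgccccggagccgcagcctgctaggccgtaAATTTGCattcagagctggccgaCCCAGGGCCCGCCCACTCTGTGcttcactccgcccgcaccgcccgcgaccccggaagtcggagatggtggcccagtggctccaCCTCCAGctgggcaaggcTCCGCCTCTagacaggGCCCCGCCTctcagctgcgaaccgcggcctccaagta
Intergenic near Ptma, cluster 4, chr1:86487501-86487740: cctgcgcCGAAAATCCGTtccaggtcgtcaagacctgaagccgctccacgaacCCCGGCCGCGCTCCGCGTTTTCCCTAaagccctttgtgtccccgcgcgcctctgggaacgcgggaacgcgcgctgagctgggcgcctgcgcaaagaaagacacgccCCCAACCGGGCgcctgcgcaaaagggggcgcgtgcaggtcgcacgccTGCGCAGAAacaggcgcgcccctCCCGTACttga
Intergenic between Cstad and 1700001O22Rik, cluster 5, chr2:30658501-30658740: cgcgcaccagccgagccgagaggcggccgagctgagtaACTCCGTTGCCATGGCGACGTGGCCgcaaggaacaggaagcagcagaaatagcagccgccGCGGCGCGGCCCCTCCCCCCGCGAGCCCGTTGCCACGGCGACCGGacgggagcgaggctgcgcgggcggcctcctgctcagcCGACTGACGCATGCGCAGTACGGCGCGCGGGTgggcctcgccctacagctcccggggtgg
Intergenic near Igf2bp3, cluster 50, chr6:49236441-49236620: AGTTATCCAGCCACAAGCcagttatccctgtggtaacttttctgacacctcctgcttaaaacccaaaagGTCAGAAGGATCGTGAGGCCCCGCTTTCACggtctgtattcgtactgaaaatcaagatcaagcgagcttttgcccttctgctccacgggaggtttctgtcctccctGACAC
Intergenic near Irf2bp2, cluster 51, chr8:126666561-126666760: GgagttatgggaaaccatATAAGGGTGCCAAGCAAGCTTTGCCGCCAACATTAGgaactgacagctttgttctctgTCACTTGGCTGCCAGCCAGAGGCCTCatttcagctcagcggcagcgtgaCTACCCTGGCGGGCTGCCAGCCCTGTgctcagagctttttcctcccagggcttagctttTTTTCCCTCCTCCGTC
Per1 intron, cluster 17, chr11:69097001-69097240: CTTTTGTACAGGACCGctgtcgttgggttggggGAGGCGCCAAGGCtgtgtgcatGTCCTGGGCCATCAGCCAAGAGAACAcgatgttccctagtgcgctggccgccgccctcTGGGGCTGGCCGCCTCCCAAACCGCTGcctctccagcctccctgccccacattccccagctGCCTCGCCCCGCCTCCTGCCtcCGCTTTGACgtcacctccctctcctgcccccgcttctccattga

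Protected bases made up very different parts of these stretches. In the region near Irf2bp2 105 of 200 bases lay in footprints of both replicates, against 55 of 200 in the region between Lrrc74a and Irf2bpl and 64 of 240 in the one near Ptma. The cluster 3 region had a match to the KLF and SP factor sequence GGGGCGGG, on the reverse strand at bases 14 to 21, and all 8 of its bases were protected. The region near Irf2bp2 had a match to the nuclear factor I sequence TTGGCA, on the reverse strand at bases 26 to 31, with all 6 bases protected. In the Per1 intron a match to the CRE sequence TGACGTCA, bound by CREB and ATF factors, stood at bases 202 to 209, and 4 of its 8 bases were protected. No other match in the printed stretches was protected over its full length. Many had 0 protected bases, such as those to AP-1 and STAT in cluster 2, ETS in cluster 5 and RUNX near Igf2bp3. Others were covered in part, such as the CArG box near Irf2bp2 with 6 of 10 bases. Positions are counted from 1 at the 5′ end of the printed stretch, and a match describes letters only.

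Most joined groups were small, and the clusters form the tail of their distribution. Of 35966 groups, 19446 were single regions and 412 (1.15%) reached 10 regions. Clusters held 10 to 40 regions with a median of 12, and 123 held exactly 10. They spanned 8.6 to 172 kb with a median of 45.0 kb, and together 19.4 Mb or 0.713% of the assembled chromosomes. Just inside the threshold, 193 clusters of 10 or 11 regions had a median summed signal of 18.04 and a median span of 38.1 kb. Just outside it, 493 groups of 8 or 9 regions had 13.3 and 31.4 kb, and the highest of these groups reached 72.5. There is thus no break in the distribution at the threshold, and the highest group outside it exceeded the median cluster, which had a summed signal of 23.8.

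**Figure D1:**
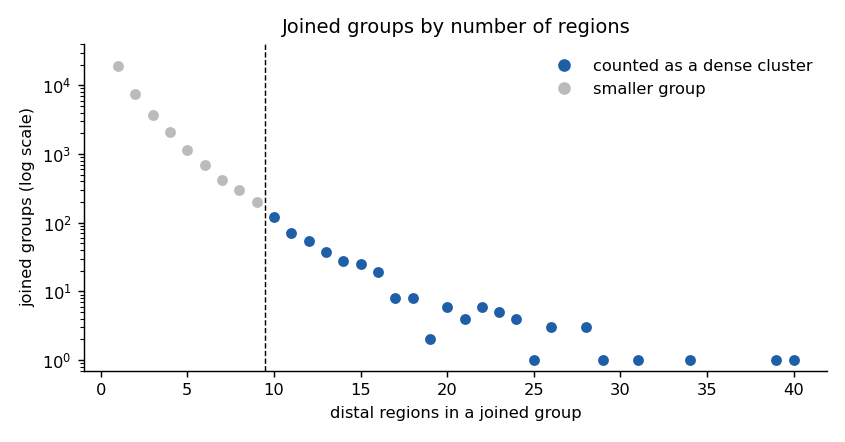
Number of joined groups (vertical, log scale) against the number of distal regions in a group (horizontal), with blue points for groups counted as dense clusters and grey points for smaller groups. Counts fall from 19446 single regions to 123 groups of 10 and are uneven from 19 regions up, where no size has more than 6 groups, with no step at the dashed threshold.

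Member regions were stronger than other distal regions. Their median signal was 1.48 in replicate 1 and 1.20 in replicate 2, against 0.901 and 0.698 in the other 70936 distal regions, a ratio of 1.68 ± 0.06 (SD, n = 2). They held 10.7% and 11.1% of the summed distal signal, a mean of 10.9% ± 0.305 (SD, n = 2). Width differed less, with medians of 211 and 200 bases. On the authors' scale the summed signal was higher in replicate 1 in 407 clusters and higher in replicate 2 in 5, with a median ratio of 1.25. Across the 412 clusters Pearson's r of the log2 summed signals of the replicates was 0.985 and Spearman's rho was 0.987, over points that share the same libraries. Of the 12 clusters ranked highest in replicate 1, 11 were also among the 12 highest in replicate 2.

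The clusters ranked 2 to 5 lay between Lrrc74a and Irf2bpl, between Wnt7b and Ppara, at Ptma, and between Cstad and 1700001O22Rik. Cluster 2 (chr12:86767941-86836960) had 29 regions, all intergenic, with sums of 123 and 97.2. Its strongest region gave 13.1% of the sum, so its signal was spread over many elements. A neighbouring cluster, ranked 12, continued over Irf2bpl, a gene for a nuclear protein with a RING domain, with 24 regions and sums of 82.4 and 68.4.

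Cluster 3 (chr15:85598981-85687280) had 31 regions and sums of 117 and 98.6. It contained no protein-coding gene, and its nearest ones were Wnt7b, a Wnt ligand, at 16.5 kb and Ppara, the receptor that switches on genes of fatty acid oxidation, at 47.7 kb. The long non-coding gene Lncppara lay within it. Cluster 4 (chr1:86487461-86532640) reached sums of 120 and 94.1 with only 15 regions. Its median region signal was 3.97. It held Ptma, which encodes prothymosin alpha, a small acidic protein of the nucleus, and it had 2 regions over 20 in replicate 1, with 24.3 and 25.4 there against 19.5 and 17.8 in replicate 2. Cluster 5 (chr2:30646921-30725860) had 28 regions and sums of 106 and 94.0, overlapped no protein-coding gene and contained Mir3089.

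**Figure D2:**
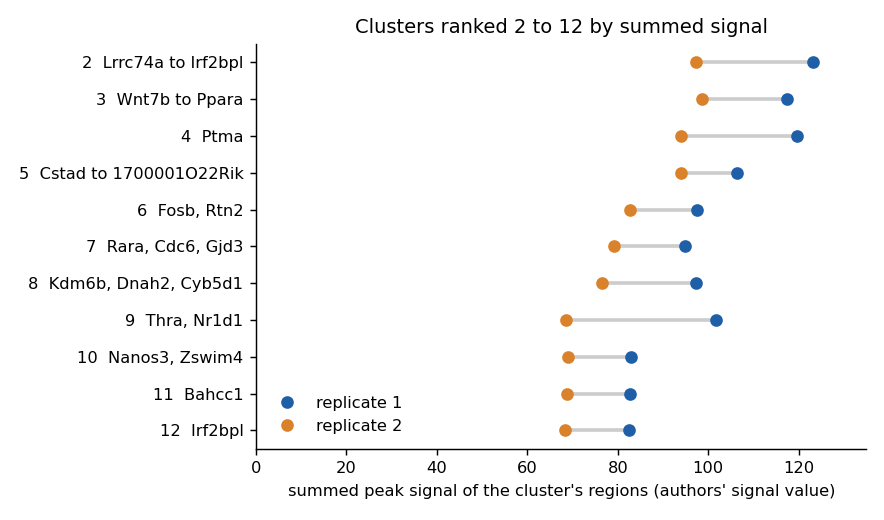
Summed peak signal (horizontal, authors' signal value) of the clusters ranked 2 to 12 (rows, with overlapping or flanking genes), blue for replicate 1 and orange for replicate 2. Replicate 1 is higher in all 11, and the widest gap is at Thra and Nr1d1, 101.7 against 68.5.

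Clusters 6 to 11 each overlapped at least 1 protein-coding gene. Cluster 6 lay at Fosb, which encodes an AP-1 subunit, and Rtn2, with 18 regions and sums of 97.5 and 82.7. Cluster 7 held 26 regions, 17 of them inside Rara, the gene of a retinoic acid receptor, and overlapped Cdc6 and Gjd3, with sums of 94.8 and 79.1. Cluster 8, with sums of 97.2 and 76.4, had 8 regions inside Kdm6b, the gene of a histone H3 lysine 27 demethylase, and 6 inside Dnah2, an axonemal dynein gene. Neither Kdm6b nor Dnah2 had a promoter peak in either replicate. The cluster also overlapped Cyb5d1, Naa38 and Tmem88, which had a promoter peak in each replicate. Cluster 9 lay over Thra, which encodes a thyroid hormone receptor, and Nr1d1, which encodes the clock repressor REV-ERB alpha and overlaps Thra on the opposite strand. Its sums of 101.7 and 68.5 gave a ratio of 1.48 between the replicates, above the median of 1.25. Cluster 10 had 16 regions in 30.1 kb between and in Nanos3 and Zswim4 and contained the miRNA genes Mir23a, Mir27a and Mir24-2, with sums of 82.9 and 68.9. Cluster 11 had 15 of its 20 regions inside Bahcc1 and sums of 82.7 and 68.8.

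**Figure D3:**
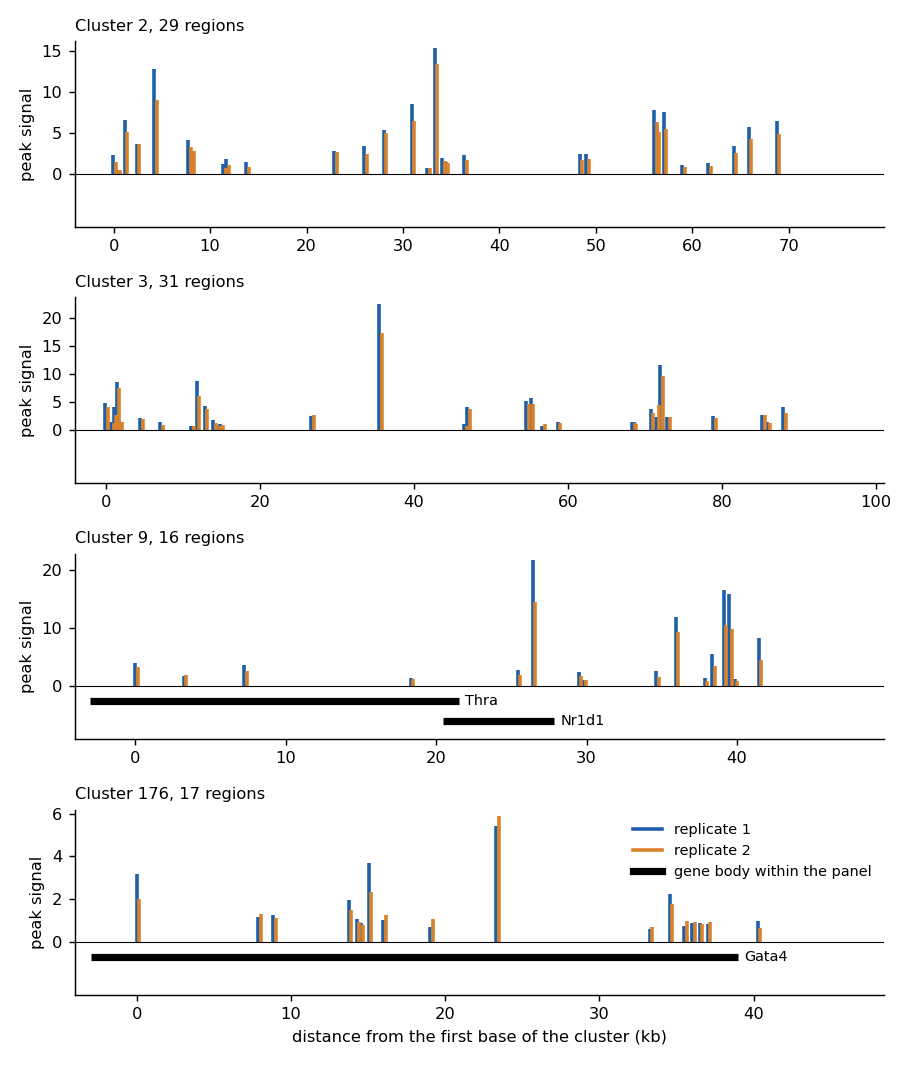
Peak signal of each member region (vertical) by distance from the cluster's first base in kb (horizontal) for clusters 2, 3, 9 and 176, blue for replicate 1 and orange for replicate 2, with black bars for protein-coding gene bodies cut at the panel edge. Cluster 2 spreads its signal over many regions, cluster 3 has 1 region well above its others, cluster 9 has its stronger regions in and beyond Nr1d1, and 16 of the 17 regions of cluster 176 lie inside Gata4.

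Clusters with many regions were not always strong. Among those with the most regions was one at B4galt5, a galactosyltransferase gene (40 regions, rank 86, sums of 40.5 and 33.1). Only 10 of the 40 lay inside B4galt5, and 16 lay in it or within 10 kb of it. Another was at Tns1, the gene of the focal adhesion protein tensin (34 regions, rank 52, sums of 50.8 and 40.6). Among the longest spans were those at B4galt5 (137 kb) and Rxra (114 kb), the latter being the gene of the shared partner of many nuclear receptors. The densest overlapped one end of Tnrc18, with 15 regions in 10.4 kb, 6 of them inside the gene, and sums of 38.2 and 34.1. A cluster on chromosome 14 with 10 regions in 8.6 kb and one between Ndufb4 and Fstl1 with 10 in 8.62 kb followed. Spearman's rho of region number and summed signal over the 412 clusters, a description, was 0.611. The strongest region gave a median of 22.8% of a cluster's sum, and over 50% in 7 clusters.

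The strongest member region of all lay in repeated sequence. It is the printed region near Igf2bp3, with signals of 41.0 and 34.1, and it gave 79.7% of the sum of cluster 50. Of its 149 words of 32 bases, 87.9% occurred again in the genome, and 73 occurred in transcripts of Lars2, a mitochondrial leucyl-tRNA synthetase gene. The sequence also reads like part of a large ribosomal RNA gene, a kind of gene with many copies, which could not be checked against an annotated copy here. Only 9 regions would remain in cluster 50 without it, which is under the threshold. The part of repeated sequence in this signal was not tested. Over all members 1.18% of such words occurred again, the median cluster had 0%, and 3 clusters exceeded 25%. The region near Irf2bp2 (27.2 and 23.7), one in a C87436 intron (27.4 and 22.9, whose stretch reaches an exon and is not shown) and that in the Per1 intron (27.8 and 19.8) were the others of the 5 strongest beside that of cluster 5 (26.2 and 24.5).

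Non-coding genes lay within many clusters. A long non-coding gene record fell in the span of 180 of the 412 clusters, among them Malat1 and Neat1, which give abundant nuclear RNAs, in cluster 15 (sums of 79.1 and 62.3). Cluster 27 on chromosome 18 contained Carmn and Bvht, long non-coding genes known from heart and smooth muscle, and Mir143 and Mir145a, miRNA genes known from smooth muscle, with 20 regions and sums of 63.8 and 50.9. Of 2202 miRNA gene records, 42 lay in cluster spans. The counts of long non-coding and miRNA genes were not compared with other spans of the same length, so no excess can be read from them. Of 403 tRNA genes in the RefSeq annotation, 70 (17.4%) lay in the spans of 12 clusters, and 7 of those clusters held 5 or more. This share was not compared with other spans of the same length either. The distance rule used starts of protein-coding genes only, so regions at tRNA genes could count towards a cluster. In 5 clusters most regions lay within 100 bases of a tRNA gene. Member regions within 100 bases of a tRNA gene numbered 62 (1.14%), against 110 (0.155%) of the other distal regions. Cluster 14 beside Btn1a1 on chromosome 13 had 16 tRNA genes and 13 of its 19 regions near one, and 15.8% of its words occurred again in the genome. The gene names in this paragraph were chosen after their values were seen.

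Of 21911 protein-coding genes, 452 (2.06%) had a body that overlapped a cluster. No such gene was found in 88 clusters, 1 in 230 clusters and 2 or more in 94. Promoters of these genes were mostly accessible: 420 of the 452 (92.9%) had a promoter peak in each replicate, against 68.8 percent of all protein-coding genes and 75.1% of other genes weighted to the same gene lengths. Among genes with such a peak, the median promoter signal was 8.16 and 7.33 for genes in clusters and 7.04 and 6.07 for other genes, higher in both replicates, with SDs over the replicates of 0.589 and 0.683. Genes in clusters were longer, with a median of 35.5 kb against 17.2 kb.

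Lists of heart muscle genes had shares in clusters above the 2.06% over all genes, though on counts of 2 to 5, and most of their genes were in none. Among cardiac transcription factors 5 of 28 (17.9%) overlapped a cluster, among contraction and calcium-handling genes 5 of 37 (13.5%), among cardiac ion channels and junctions 2 of 18 (11.1%), and among fatty acid and mitochondrial genes 2 of 24 (8.33%). Genes of the same length would give 1.99% to 2.86% in these lists. Endothelial genes had 4 of 28 (14.3%), growth factor and matrix signalling genes 3 of 30 (10.0%), smooth muscle and pericyte genes 1 of 14 and fibroblast genes 1 of 22. The only erythroid gene of 11, Tal1, is also in the endothelial list. No gene was in a cluster among epicardial, leukocyte, fat, hepatocyte, lung epithelial, skeletal muscle or neuron and glia genes, which had 12 to 20 each. Genes of the same length would give 0.207 to 0.457 genes per list there, so a count of 0 cannot be told apart from the background. By this measure the other lists also had fewer than 1 gene each, at most 0.984.

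**Figure D4:**
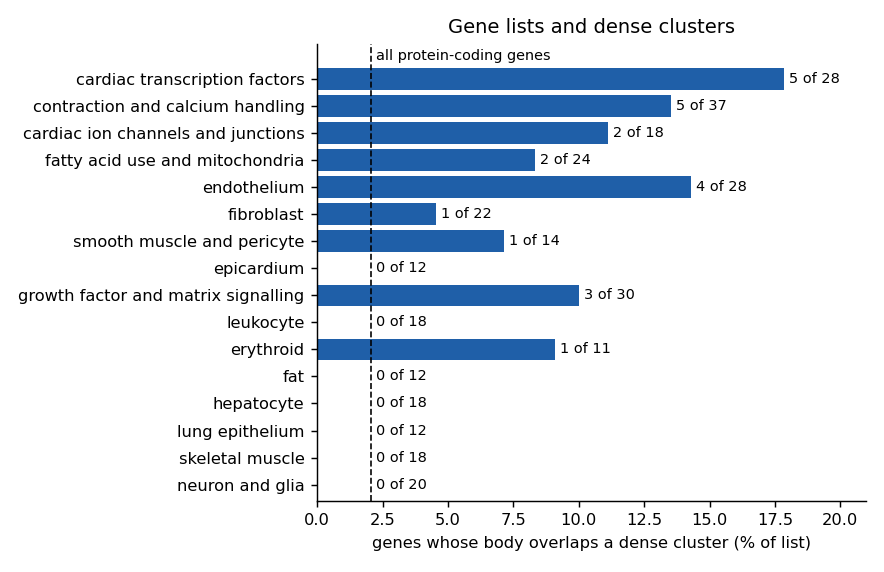
Percent of the genes of each list (rows) whose body overlaps a dense cluster (horizontal), with the count beside each bar and a dashed line at 2.06%, the value over all protein-coding genes. The highest bar is 5 of 28 cardiac transcription factors, and 7 lists stand at 0.

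Gata4, a zinc-finger factor required for heart development, had the most member regions inside its body among the cardiac transcription factors. Its cluster, ranked 176 (chr14:63232681-63273118), had 17 regions, 16 of them in the gene, and sums of 27.5 and 24.9. The strongest, an intronic region 23.3 kb from the first base, had 5.41 and 5.89, and the next had 3.68 and 2.33. Hand2, a bHLH factor of the heart ventricles, had 1 region inside its short body and 13 within 10 kb of it. The Hand2 cluster of 22 regions (rank 142, sums of 31.8 and 26.3) was led by an intergenic region with 6.62 and 5.68. Mef2d, a MADS-box factor of muscle, had the highest-ranked cluster of the list, 26, with 16 regions and sums of 64.6 and 50.2. Its strongest pair stood next to each other at the 3′ side of the gene, with 13.0 and 11.4 in one and 18.9 and 13.1 in the other. Meis1, a homeobox factor (11 regions, rank 271), and Prdm16, a zinc-finger factor (10 regions, rank 384), had sums of 20.8 and 17.5 and of 12.01 and 9.47. Inside the gene bodies lay 6 regions for Meis1 and 5 for Prdm16, whose cluster also overlapped Actrt2.

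Among contraction genes the highest rank was that of Tnni1, which encodes the slow skeletal troponin I that the fetal and newborn heart also uses. Its cluster, ranked 69, had 17 regions over Csrp1, Tnni1 and Phlda3 with sums of 46.3 and 34.3, and its strongest region, intergenic, had 12.9 and 7.97. Ldb3, a Z-disc gene, followed with rank 167 and sums of 30.5 and 23.3 over 10 regions, all within the gene. The clusters of Casq2, the calcium-binding protein of the sarcoplasmic reticulum (rank 263), Tpm1, the gene of a tropomyosin (rank 286), and Rbm20, a splicing factor for titin (rank 349), had sums of 22.1 and 17.2, of 20.6 and 16.001, and of 16.3 and 11.6. The Casq2 cluster also overlapped Vangl1, with 6 member regions in that gene against 3 in Casq2, and 1 region gave 55.0% of the sum. Promoter signal did not follow these ranks: it was 23.4 and 20.96 at Tpm1 and 2.05 and 1.498 at Tnni1.

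Of the channel genes, Kcnq1, a potassium channel gene, was in cluster 219 (sums of 25.6 and 19.9). Mb, which encodes myoglobin, was in cluster 141 with 14 regions and sums of 33.9 and 24.5. Slc25a4, the gene of the heart and muscle ADP/ATP carrier, was in cluster 240 with 15 regions and sums of 23.8 and 18.8. Of these regions 2 lay inside Slc25a4, and 7 lay in it or within 10 kb of it.

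Endothelial genes were represented by Plvap, Pecam1, Tal1 and Cdh5. Plvap, a component of the diaphragms of endothelial openings, had no promoter peak in either replicate, yet its cluster ranked 49 with 10 regions and sums of 53.0 and 41.5. The cluster also spans Gtpbp3 and Ccdc194, and its strongest region, with 18.05 and 12.9, lay outside the Plvap body. Pecam1, an adhesion molecule of endothelial junctions, had 9 regions in its body in cluster 95 (sums of 41.8 and 30.7). Cdh5, the endothelial cadherin, was in cluster 380, with most of its 10 regions upstream and sums of 11.99 and 9.79. Tal1, a bHLH factor of blood and endothelium, was in cluster 314 (17.7 and 14.8). That cluster had 1 region inside Tal1 and also overlapped Stil and Pdzk1ip1. Fbln1, a matrix glycoprotein gene of the fibroblast list, had all 12 regions of cluster 260 in its body (21.1 and 18.7). Cspg4, a pericyte proteoglycan gene, was in cluster 164 (30.0 and 24.1). The signalling genes were Smad6, an inhibitory SMAD (cluster 177, sums of 29.9 and 22.5), Fgfr1, a fibroblast growth factor receptor (cluster 292, 19.8 and 16.1), and Notch2, a Notch receptor (cluster 343, 16.2 and 12.6).

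Lists of immediate early genes, clock genes and nuclear receptors were made after the cluster genes had been seen, so their counts describe what was noticed and support nothing. Of 29 immediate early genes, which are switched on within minutes of a stimulus, 8 (27.6%) overlapped a cluster, beside the 2.06% over all genes. They were Fosb (rank 6), Nr4a1 (18), Btg2 (20), Socs3 (25), Ier5 (41), Dusp1 (55), Jund (79) and Ier2 (87). All 8 had a promoter peak in each replicate, from 13.1 and 8.71 at Ier2 to 22.1 and 19.0 at Jund. Of 20 clock genes 3 did, namely Nr1d1 (9), Per1 (17) and Arntl (372), and of 48 nuclear receptors 5 did, namely Rara (7), Thra and Nr1d1 (9), Nr4a1 (18) and Rxra (21).

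Members differed from other distal regions in position and base composition. Their median distance to the nearest protein-coding start was 15.3 kb against 21.8 kb, and 5.66% against 16.7% lay beyond 100 kb. Exons, introns and intergenic DNA held 5.43%, 44.9% and 49.6% of members, close to the 5.46%, 44.6% and 49.9% of other distal regions. GC content averaged 55.8% against 52.4%, with 2.35 against 1.95 CpG per 100 bases. Starts of genes that are not protein-coding lay within 1 kb of 7.10% of members and 5.37% of other distal regions. Within joined groups the gaps between members had a median of 2420 bases, against 3320 in smaller groups. The rule joined regions by the length of these gaps, so this difference describes the choice of members and is not a separate finding.

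Members carried more footprints per region, though not at matched signal. Footprints per region were 2.82 in both replicates among members, against 2.45 and 2.38 among other distal regions, a ratio of 1.17 ± 0.02 (SD, n = 2). Per 100 bases of region the difference was smaller, 1.142 and 1.143 in members against 1.129 and 1.098. All distal regions were then split into 4 groups of equal size by signal. In the lowest group members had 1.04 and 1.13 footprints per region against 1.39 and 1.27, in the second 1.98 and 1.85 against 2.17 and 2.05, and in the third 2.48 and 2.49 against 2.77 and 2.71. Members had slightly more in the highest group alone, 3.68 and 3.73 against 3.60 and 3.64. That group held 42.4% of members and 23.7% of the others, and the mean ratio over the 4 groups was 0.915. Footprints were called from the same alignments as the peaks and are not an independent measure. Members with 8 or more footprints made up 1.32% and 1.54%, against 0.395% and 0.475%, and 111 members (2.04%) had none in either replicate, against 3.22% of other distal regions. These shares were not matched for region width or signal.

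**Figure D5:**
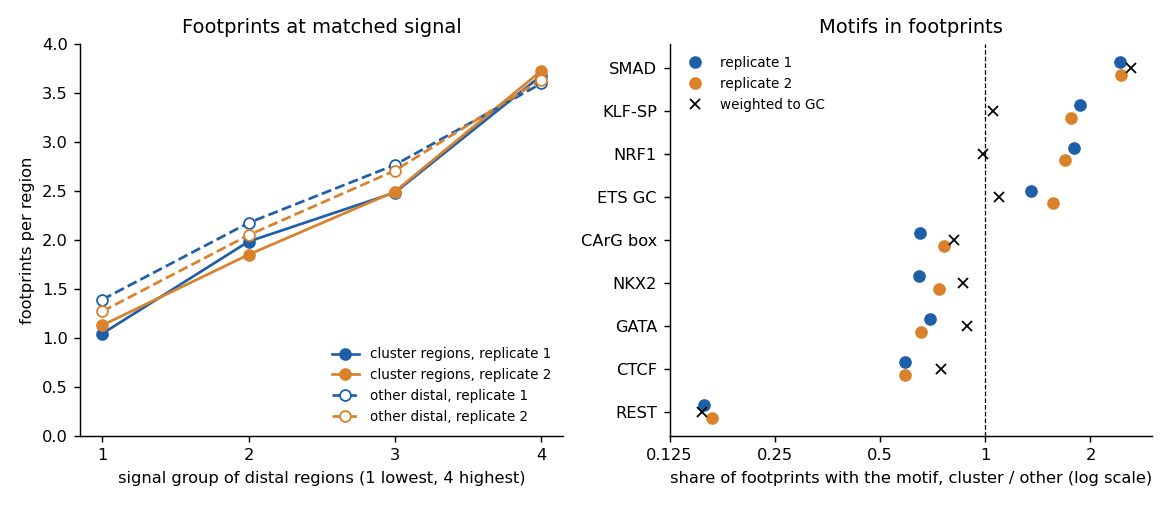
Left, footprints per region (vertical) in 4 equal groups of distal regions by signal (horizontal) for cluster regions (filled, solid) and other distal regions (open, dashed), where members are lower in the first 3 groups. Right, ratio of the share of footprints with a motif, cluster to other distal regions (log scale), per replicate and with other regions weighted to the members' GC content (crosses), where REST and CTCF stay below 1. The REST ratio rests on 4 member matches in each replicate.

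Of 32 consensus sequences searched in footprints, 13 were more frequent in members in both replicates and 12 less frequent in both. Among sequences of heart factors, GATA, NKX2 and the CArG box were lower in both replicates. Slightly lower in both were CATCTG, bound by bHLH factors such as HAND (ratios of 0.892 and 0.888), TEAD (0.926 and 0.874) and MEIS (0.924 and 0.921). Weighted to the members' GC content, CATCTG, TEAD and MEIS had 0.976, 0.949 and 0.969. MEF2 (0.943 and 1.002) and T-box (1.17 and 0.832, on 13 and 10 member matches) lay on both sides of 1. For each sequence the share of footprints with a match on either strand, 10 bases of flank included, was compared. The KLF and SP sequence GGGGCGGG was in 1.32% and 1.25% of member footprints against 0.704% and 0.712% (ratio 1.81 ± 0.08, SD, n = 2), the NRF1 motif in 0.241% and 0.234% against 0.135% and 0.139% (1.74 ± 0.07), and the ETS sequence CCGGAAG in 0.509% and 0.579% against 0.377% and 0.371% (1.46 ± 0.15). With other regions weighted to the members' GC content these ratios were 1.05, 0.985 and 1.096, so most of the excess moved with GC. The SMAD palindrome GTCTAGAC had 6 matches in each replicate (ratio 2.43 ± 0.01, and 6.00 without the flank) and the nuclear receptor motif DR1 had 6 and 2, counts too small for an order. HNF1, without a match in any footprint compared, has no ratio.

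Lower shares were found for the sequences of REST, CTCF, GATA, NKX2 and the CArG box. TTCAGCACC, part of the site of the neuronal gene repressor REST, was in 4 member footprints in each replicate, 0.0261% and 0.0260% against 0.167% and 0.158% (ratio 0.161 ± 0.006), and the GC-weighted ratio was 0.154. The SD over the replicates does not measure the uncertainty of a count of 4, so the size of this ratio is poorly known. The core motif of CTCF, the factor of insulators and loop ends, was in 2.82% and 2.85% of member footprints against 4.79% and 4.82% (0.589 ± 0.002, GC-weighted 0.745). AGATAA, bound by GATA factors, was in 0.639% and 0.579% against 0.920% and 0.883% (0.676 ± 0.03, and 0.350 without the flank), and TNAAGTG, bound by NKX2 factors, in 0.769% and 0.827% against 1.19% and 1.12% (0.693 ± 0.07). GC weighting brought these to 0.889 and 0.866. The CArG box bound by SRF had 14 and 17 matches (0.707 ± 0.08, GC-weighted 0.812). In 200 bases about the region middle GGGGCGGG was found in 4.18% of members and 2.41% of other distal regions, CCGGAAG in 2.63% and 1.99%, GTCTAGAC in 0.276% and 0.183%, TTCAGCACC in 0.129% and 0.562%, the CTCF core in 9.09% and 12.51%, AGATAA in 6.07% and 8.14%, TNAAGTG in 6.95% and 9.34%, and the CArG box in 0.975% and 0.964%.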

How the data were processed

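Heart DNase-seq of 2 replicates was analysed from lists on mm10. Per the submitters' labels the assembly is mm10, and the deposited peak signal is the authors' value per peak, while no label or header used here names its scaling or the caller. Deposited FDR values (q-values, listed under 0.05) and footprints were also made by the authors per replicate. Column 7 of the larger peak set gave a region's value, its highest peak, averaged over replicates. Starts, genes and exons were from GENCODE M21, tRNA genes and sequence from RefSeq GRCm38.p6. A footprint belonged to the region that held its middle. The members, gene lists and motifs were chosen with earlier results of these data known. The 16 lists had 325 entries, of which 3 symbols (Ctgf, Cyr61 and Ahsp) were not found. Named were the 12 highest-ranked clusters with their genes, the 3 with the most regions, the densest and the longest, list genes in clusters, the 5 highest and 5 lowest motif ratios, and the 5 strongest member regions, of which some are not reported here. Each 32-base word of a member was searched for on either strand of the chromosomes. Weighting for gene length or GC content used 10 groups of equal size. Clustering and overlaps were tested on simulated data. Alternatives changed the gap, peak set, distance, starts, cluster size, replicate and merging. The tools were pysam 0.24.0, scipy 1.17.1, matplotlib 3.10.9, pandas 2.3.3, numpy 2.4.6 and Python 3.11.15. Alleles and reads were not analysed here.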

Additional observations from a re-analysis of the deposited data

How the results depend on the processing

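The number of clusters moved by over 1.5 times with the gap, the peak set, the smallest cluster size and the use of 1 replicate. A gap of 5 kb gave 53 clusters, 658 members, 0.862% of distal regions, 1.43% of the signal and 32 genes. A gap of 20 kb gave 1091, 16174, 21.2%, 28.5% and 1656. The smaller peak set gave 95, 1208, 2.51%, 3.96% and 109. Over 2.5 kb from starts there were 291 clusters, shares of 5.35% and 8.36% and 226 genes, and with starts of all annotated genes 333 clusters and shares of 5.93% and 9.17%. Clusters of 8 or more numbered 905 with 9579 members, 12.54% of regions and 17.98% of the signal, and clusters of 15 or more 99 with 1904, 2.49% and 4.29%. With the peaks of 1 replicate alone, which drops the need for a peak in each, there were 765 (replicate 2) to 1090 (replicate 1) clusters, 10824 to 15108 members, 11.8% to 14.0% of regions, 16.6% to 19.8% of the signal and 855 to 1128 genes. Merging peaks that touch (405 clusters) and leaving out the 3 clusters of repeated words (409), both chosen after seeing the data, changed little. Of the 12 highest clusters, 11 stayed among the 12 in either replicate alone and by signal times peak length, 5 by number of regions and 3 by signal per 10 kb. The footprint ratio of 1.17 was 1.15 to 1.19 in either replicate, 1.11 in the smaller peak set and 0.915 as a mean over 4 signal groups, below 1. Of 10 motif ratios under 6 settings, 4 values crossed 1: NRF1 weighted to GC (0.985), the ETS sequence over signal groups (0.951), and the CArG box in 200-base windows (1.01) and over signal groups (1.06). DR1 over signal groups gave no value. Without the flank GATA (0.350) and SMAD (6.00) moved by over 1.5 times. No paired analysis was possible because there is 1 group and no contrast. Limits are that depth per peak is unknown, that 2 replicates give a poor SD, and that nearness does not tie a cluster to a gene.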

Other observations

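Clusters were unevenly spread over chromosomes. Chromosome 11 had 47 clusters with 12.3% of its distal regions as members and chromosome 8 had 37 with 11.4%, against 2.98% on chromosome 13. Chromosome X had 3 clusters and 2.32%. Protein-coding genes per Mb were 13.4 on chromosome 11, 8.04 on 8, 6.96 on 13 and 5.54 on X, but also 13.9 on chromosome 7, where 7.28% were members. The part of gene density, or of the copy number of X in males, was not tested. Another cluster lay within 100 kb of 111 of the 412 clusters. In the gaps between members, outside peaks, 3.83% and 3.95% of bases were listed with FDR under 0.05, against 2.78% and 2.58% in the gaps of smaller groups. Gaps between members were also shorter, with a median of 2420 against 3320 bases, and the comparison was not matched for gap length.

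Some clusters stood at loci with repeated sequence. The only cluster of chromosome Y, ranked 370, held 10 of the 28 distal regions of that chromosome, and 49.8% of its words occurred again in the genome. Its sums were 6.71 in replicate 1 and 17.9 in replicate 2, the reverse of nearly all others. A cluster near Defb7 on chromosome 8, ranked 332, had 66% of words that occurred again and sums of 16 and 14.2. A cluster of 11 regions on chromosome 13, ranked 77, had 26.4%, with 10 tRNA genes. The lowest-ranked cluster, near the start of chromosome 4, had 23 regions with sums of 4.09 and 3.99 and 46.4% of region bases masked as repeat. A cluster at Sfi1 on chromosome 11, ranked 45, had 26 regions, sums of 48.5 and 48.8 and 19.7% of words that occurred again.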
